A study of Danio rerio with 58 samples.

Results

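The genes described here are 10 genes of the zebrafish endothelium, the cell layer that lines blood and lymph vessels. They are the transcription factors etv2 and fli1a, the VEGF receptors kdrl, kdr, flt1 and flt4, the Tie receptors tie1 and tek, the junction protein gene cdh5 and the secreted factor gene egfl7. They were chosen by symbol (cdh5 is ENSDARG00000075549, etv2 is ENSDARG00000053868 and tek is ENSDARG00000028663), and all 10 were found among the 32057 genes of the count tables. Each had reads in every one of the 58 libraries, with counts from 28 (flt1, in the library where it was lowest) to 1687 (fli1a, in the library where it was highest).

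Endothelial cells of the zebrafish arise from lateral mesoderm, where Etv2 (also called Etsrp) acts early and broadly and its expression declines as vessels mature, while Fli1a stays on in vessels. Vegfa signals through the Kdrl and Kdr receptors, Flt1 binds Vegfa and limits its supply, and Flt4 receives Vegfc in veins and lymphatics. Tie1 and Tek (Tie2) form the angiopoietin receptor system, Cdh5 (VE-cadherin) holds endothelial cells together, and Egfl7 is a matrix protein released by endothelium during tube formation.

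AB strain embryos were grown in dishes from just after fertilization and either kept unexposed or irradiated continuously with gamma rays from an external caesium source at 0.5, 5 or 50 mGy/h. Pools of entire embryos or larvae were collected for mRNAseq at 24, 48 and 96 hpf (hours post fertilization). The labels give 3 irradiation batches: I10 held 0.5 mGy/h and controls at all stages, I17 held 5 and 50 mGy/h and controls at all stages, and I32 held 0.5 mGy/h and controls at 24 hpf. The study removed 7 of the 58 libraries as clustering outliers and showed a further 5 (I10 at 24 hpf) in neither of its clusterings, so that 51 libraries enter the comparisons below. Within a stage and batch the replicates are pools of one irradiation batch, so p-values measure the spread between those pools, which may be technical. Each exposed group had 2 or 3 libraries and each control group 2 to 5. The 5 and 50 mGy/h groups of a stage share their controls, and the step from 0.5 to 5 mGy/h coincides with a change of batch, so that dose rate and batch cannot be told apart there. Counts assigned to genes ranged from 28278920 to 49971607 per library, with a median of 35489525.

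Levels are given as CPM, each gene's reads as a share of the library's reads on genes, with TMM scaling between libraries. They are compared between samples and not between genes, because they are not divided by gene length. A gene is called a DEG (differentially expressed gene) where the groups differ 1.5 times or more, in either direction, with an adjusted p-value below 0.01, from edgeR's quasi-likelihood test with Benjamini-Hochberg adjustment over all genes tested. Since whole animals were sequenced, fewer endothelial cells and less RNA per endothelial cell cannot be told apart.

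The main change was at 24 hpf in batch I17, where etv2, flt4 and egfl7 were higher at both 5 and 50 mGy/h, and tek at 5 mGy/h, by 1.77 to 2.65 times. These sizes include the TMM scaling, which raised the CPM of the exposed pools relative to the controls there. Unscaled shares of reads differed less for these genes. In the other members the exposed pools lay lower against the controls unscaled than scaled. Calls on unscaled shares were not tested. Of the other members, kdrl, kdr, tie1, fli1a and flt1 were not DEGs at either dose rate. For cdh5 the exposed pools lay lower at 5 mGy/h without reaching the threshold, and overlapped the controls at 50 mGy/h. No member was a DEG at 48 or 96 hpf, or at 0.5 mGy/h at any stage.

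Of the transcription factors, etv2 showed the clearest separation. Its CPM were 13.2, 13.5 and 12.9 in the 3 controls of I17 at 24 hpf, 31.9, 36.9 and 35.0 at 5 mGy/h, and 36.4, 29.3 and 37.5 at 50 mGy/h. The control pools lay within 1 CPM of each other and every exposed pool was above them, with no overlap. The log2 fold change of etv2 was 1.40 ± 0.15 (SE, edgeR adjusted p = 7.96e-05) at 5 mGy/h and 1.41 ± 0.15 (edgeR adjusted p = 8.01e-05) at 50 mGy/h. The other Ets factor did not follow it. For fli1a the controls had 28.0, 24.3 and 24.4 CPM, against 24.4, 24.2 and 24.1 at 5 mGy/h and 22.7, 21.4 and 20.3 at 50 mGy/h. All exposed pools at 50 mGy/h were below the controls, and the log2 difference of −0.23 ± 0.13 (SE) did not pass the test (edgeR adjusted p = 0.247).

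Among the VEGF receptors only flt4 was a DEG. Its CPM were 20.4, 27.3 and 22.4 in controls, 35.5, 50.3 and 45.5 at 5 mGy/h, and 42.5, 39.6 and 44.3 at 50 mGy/h. The lowest exposed pool exceeded the highest control pool at both dose rates. Before scaling, flt4 had 850, 760 and 929 reads in the controls, of 33233175, 29672762 and 38091537 reads on genes. At 5 mGy/h it had 1080, 1027 and 958 reads, of 38808910, 29691804 and 31449413. These unscaled shares differed less than the CPM. The log2 fold change of flt4 was 0.91 ± 0.17 (SE, edgeR adjusted p = 0.00261) at 5 mGy/h and 0.87 ± 0.17 (edgeR adjusted p = 0.00412) at 50 mGy/h. The Vegfa receptors kdrl and kdr had log2 differences between −0.20 and 0.24 at the 2 dose rates, with adjusted p-values from 0.411 upwards. The decoy receptor gene flt1 was read at low depth, with 1.56, 2.05 and 1.52 CPM in controls and 2.20, 3.04 and 2.42 CPM at 5 mGy/h. Its groups did not overlap at 5 mGy/h, but the log2 difference of 0.59 ± 0.30 (SE) was not past the threshold (edgeR adjusted p = 0.156), and at 50 mGy/h it was 0.06 ± 0.30.

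The Tie receptors parted. For tek the controls had 8.26, 14.7 and 8.39 CPM, the 5 mGy/h pools 21.4, 23.8 and 30.2 CPM, and the 50 mGy/h pools 17.5, 17.5 and 27.5 CPM. One control pool (replicate 3) stood above its 2 fellows, yet below all 6 exposed pools. The same pool was also the highest control for flt4 and egfl7 and the lowest for kdrl and tie1. The log2 fold change of tek was 1.27 ± 0.25 (SE, edgeR adjusted p = 0.00328) at 5 mGy/h, whereas at 50 mGy/h the value of 1.02 ± 0.25 had an edgeR adjusted p of 0.0121 and was not a DEG. For tie1 the log2 differences were −0.29 ± 0.23 and −0.28 ± 0.23 (SE), with overlapping groups at both dose rates and adjusted p-values of 0.360 and 0.400.

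The secreted factor gene egfl7 had 10.2, 14.7 and 12.04 CPM in controls, 23.8, 22.1 and 24.6 CPM at 5 mGy/h and 24.6, 17.7 and 22.1 CPM at 50 mGy/h. All exposed pools were above all controls. Its log2 fold change was 0.94 ± 0.18 (SE, edgeR adjusted p = 0.00281) at 5 mGy/h and 0.82 ± 0.18 (edgeR adjusted p = 0.00686) at 50 mGy/h. The junction gene cdh5 lay on the other side, with 9.79, 9.41 and 10.9 CPM in controls and 6.01, 4.95 and 5.80 CPM at 5 mGy/h. These groups did not overlap, and the log2 difference of −0.83 ± 0.26 (SE) missed the threshold (edgeR adjusted p = 0.0313). It was called in 2 of 12 alternative settings, without the filter on low counts and when the 5 mGy/h group was fitted with its controls alone (edgeR adjusted p = 0.00688 and 0.00102). Over all genes these settings called 2816 of 25704 and 3347 of 17903, against 1816 of 18358 in the main fit. At 50 mGy/h the 3 pools had 10.99, 8.90 and 4.26 CPM, which spread on both sides of the controls (log2 difference −0.29 ± 0.26, edgeR adjusted p = 0.441). Before scaling, cdh5 had 408, 262 and 451 reads in the controls and 183, 101 and 122 reads at 5 mGy/h. As shares of the reads on genes given for flt4, these values lay further apart than the CPM.

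**Figure D1:**
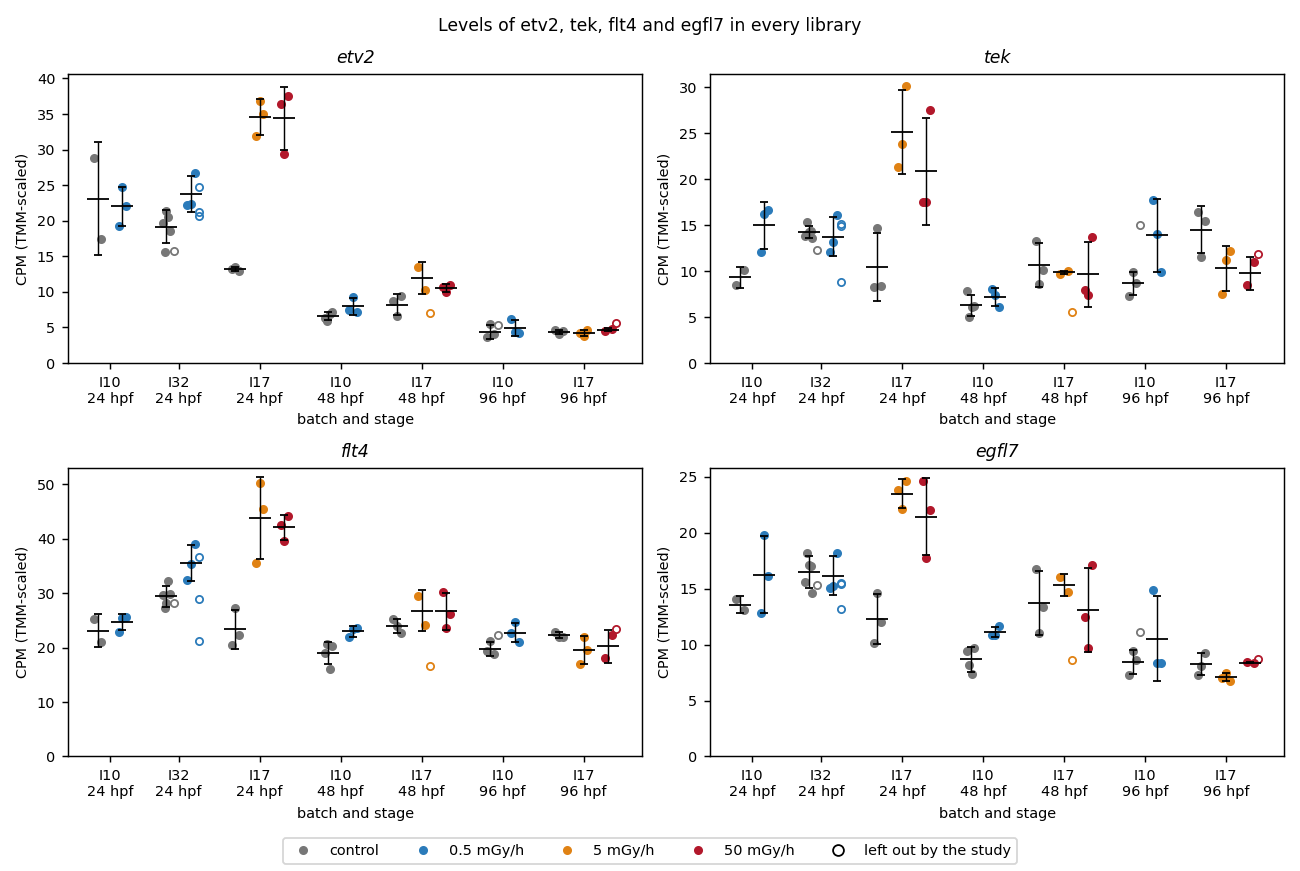
TMM-scaled CPM (y axis) of etv2, tek, flt4 and egfl7 in each library, by batch and stage (x axis) and coloured by dose rate. Points are libraries, black bars are the mean ± SD of the libraries compared, and open circles are libraries left out by the study. At 24 hpf in I17 the etv2 controls sit between 12.9 and 13.5 CPM and the exposed pools between 29.3 and 37.5 CPM, while at 96 hpf all etv2 points are below 7 CPM.

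In all, 4 of the 10 genes were DEGs at 5 mGy/h at 24 hpf, each of them higher, where 9.89% of the 18358 genes tested were DEGs (6.68% higher, 3.21% lower). The median log2 difference of the 10 was 0.37, beside −0.06 over all genes tested. At 50 mGy/h 3 of the 10 were DEGs, each higher, where 5.88% of the genes were DEGs (4.17% higher, 1.71% lower), and the median was 0.15 beside −0.02. Groups did not overlap for 6 of the 10 genes at 5 mGy/h (5 higher and 1 lower) and for 5 at 50 mGy/h (4 higher and 1 lower), where 49.7% (24% higher, 25.7% lower) and 36.6% (17.8% higher, 18.7% lower) of all genes did not overlap. The count of 4 DEGs at 5 mGy/h fell to 1, leaving etv2, when 5 mGy/h replicate 2 or 4, or control replicate 1 or 4, was left out. At 50 mGy/h the count fell from 3 to 1 without control replicate 1 or 4, and egfl7 was also lost without 50 mGy/h replicate 4. The share of all genes called in these smaller fits is not given.

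The step from 5 to 50 mGy/h gave no DEG among the members in a direct test at 24 hpf (edgeR's quasi-likelihood test, 0 of 18358 genes, 0% of all; 0 members at an unadjusted p below 0.05; 0 with DESeq2). The 95% interval of the log2 difference, 50 minus 5 mGy/h, was −0.30 to 0.31 for etv2, −0.77 to 0.26 for tek and −0.02 to 1.105 for cdh5. For etv2 this interval excludes a further rise like that between control and 5 mGy/h. For cdh5 it does not exclude a return to the control level. At 48 and 96 hpf the same test also called none of the 10, with 0% and 0.0589% of all genes called.

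At 48 hpf the exposed I17 embryos lay nearer to their controls. For etv2 the controls had 8.66, 6.56 and 9.36 CPM, against 13.5 and 10.3 CPM at 5 mGy/h and 10.6, 9.99 and 10.99 CPM at 50 mGy/h. All exposed pools were still above all controls, but the log2 differences of 0.54 ± 0.20 and 0.39 ± 0.18 (SE) were not past the threshold (edgeR adjusted p = 0.177 and 0.192). The 5 mGy/h library left out by the study had 7.10 CPM of etv2, within the range of the controls. For fli1a the order was the reverse, with 41.1, 41.0 and 38.5 CPM in controls, 33.4 and 32.3 CPM at 5 mGy/h and 34.2, 31.5 and 28.5 CPM at 50 mGy/h. These groups did not overlap either, and the log2 differences of −0.28 ± 0.14 and −0.32 ± 0.13 (SE) did not pass (edgeR adjusted p = 0.364 and 0.139). No member was a DEG (0.157% and 1.53% of all genes were), and non-overlapping groups (3 and 2 of the 10 genes) were found for 40.3% and 27.9% of all genes.

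At 96 hpf the genes that had been raised at 24 hpf were level with the controls or lay below them. For etv2 the controls had 4.64, 4.03 and 4.51 CPM, the 5 mGy/h larvae 4.29, 3.84 and 4.57 CPM and the 50 mGy/h larvae 4.53 and 4.84 CPM. For tek the controls had 16.4, 11.6 and 15.5 CPM, the 5 mGy/h larvae 7.50, 11.2 and 12.1 CPM and the 50 mGy/h larvae 8.52 and 11.04 CPM. The tek groups overlapped at 5 mGy/h and were all lower at 50 mGy/h, with log2 differences of −0.49 ± 0.19 and −0.56 ± 0.22 (SE) that did not pass (edgeR adjusted p = 0.185 and 0.115). For cdh5 the controls had 6.63, 8.09 and 5.93 CPM and the 50 mGy/h larvae 10.9 and 8.94 CPM, a log2 difference of 0.54 ± 0.22 (SE) in the opposite direction from 24 hpf that did not pass either (edgeR adjusted p = 0.123). The 50 mGy/h library left out by the study had 6.09 CPM of cdh5, within the range of the controls, and 11.8 CPM of tek, above the lowest control. Over the alternative settings the cdh5 difference ranged from 0.34 to 0.67 and was never called. No member was a DEG at either dose rate (0.275% and 0.162% of all genes were). Groups were apart for none of the 10 genes at 5 mGy/h (23.6% of all genes) and for 4 at 50 mGy/h, which had 2 libraries (50.1% of all genes).

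The difference in response between stages was itself tested within I17. The effect of 5 mGy/h was lower at 96 than at 24 hpf for tek, by −1.79 ± 0.37 on the log2 scale (SE, edgeR adjusted p = 0.0019), for etv2 by −1.47 ± 0.21 (edgeR adjusted p = 0.000102), for egfl7 by −1.18 ± 0.26 (edgeR adjusted p = 0.00302) and for flt4 by −1.12 ± 0.21 (edgeR adjusted p = 0.000857). These are 4 of the 10 genes, where 12% of all genes passed this test (adjusted p below 0.01) and the median of all genes was 0.12. The effect of 50 mGy/h was lower at 96 than at 24 hpf for tek (−1.61 ± 0.40), etv2 (−1.33 ± 0.22) and flt4 (−1.03 ± 0.22), with edgeR adjusted p-values of 0.00622, 0.000425 and 0.00259, where 9.14% of all genes passed. The first count fell to 2 (etv2 and flt4) without the 24 hpf control replicate 1 or the 96 hpf replicate 10 at 5 mGy/h, and the second to 1 and 0 without that control or the 96 hpf replicate 10 at 50 mGy/h. Between 24 and 48 hpf only etv2 at 50 mGy/h passed (−1.01 ± 0.20, edgeR adjusted p = 0.00499), where 1.28% of all genes did, and this call was lost without any of 7 single libraries. The corresponding count at 5 mGy/h was 0 with edgeR (0.778% of all genes; 5 of the 10 at an unadjusted p below 0.05) and 1 with DESeq2. For 48 against 96 hpf no member passed at either dose rate (0.862% and 2.67% of all genes; 1 member at an unadjusted p below 0.05 at each dose rate; 0 with DESeq2).

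**Figure D2:**
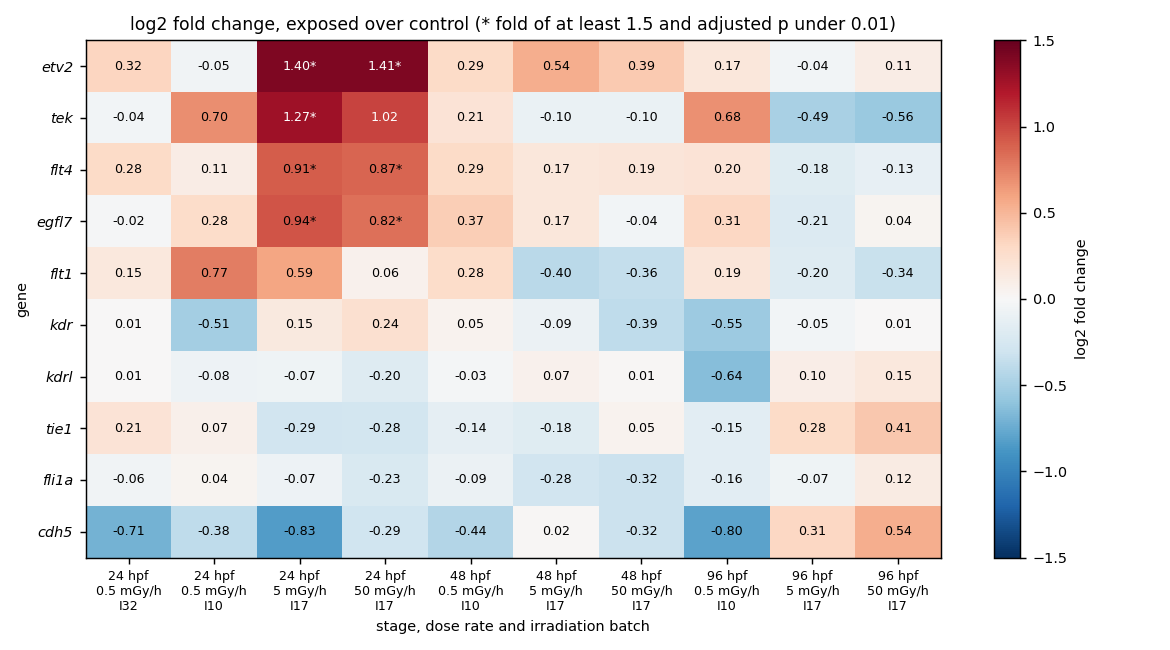
log2 fold change, exposed over control, of the 10 genes (rows) in the 10 comparisons of stage, dose rate and irradiation batch (columns), with the colour scale from −1.5 to 1.5; an asterisk marks a DEG. The 7 asterisks fall on etv2, tek, flt4 and egfl7, all in the 24 hpf columns of batch I17.

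At 0.5 mGy/h and 24 hpf no member was a DEG in either batch. For cdh5 in I32 the 3 exposed pools compared had 6.11, 4.49 and 6.83 CPM, against 10.3, 11.9, 9.29, 8.37 and 7.68 CPM in the 5 controls. The groups did not overlap, and cdh5 missed the threshold in edgeR's test but passed it in DESeq2 (log2 fold change −0.70, DESeq2 adjusted p = 0.00542). DESeq2 called 110 of 25850 genes there, against 13 of 18721 with edgeR. Of the libraries the study had removed, the exposed pools had 13.6, 12.4 and 7.47 CPM of cdh5 and the control had 4.83 CPM. Of these, 2 exposed pools were above every control compared, while the third was below them as the compared pools were, and with all 12 libraries the log2 difference was −0.03 (edgeR adjusted p = 0.980). In batch I10 at 24 hpf the 3 exposed pools had 17.2, 8.57 and 7.84 CPM and the 2 controls 15.3 and 14.2 CPM, with overlapping groups and a log2 difference of −0.38 ± 0.27 (SE). The difference between the batches in this effect was −0.33 (edgeR adjusted p = 0.847), and no member passed this test (0.0101% of all genes; 1 member, tek, at an unadjusted p below 0.05; 0 with DESeq2).

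In I32 the exposed pools were above all controls for etv2 (22.2, 22.4 and 26.7 CPM against 15.6 to 21.4 CPM) and for flt4 (32.4, 35.3 and 39.0 CPM against 27.2 to 32.2 CPM). The log2 differences of 0.32 ± 0.11 and 0.28 ± 0.09 (SE) did not pass (edgeR adjusted p = 0.172 and 0.155). The removed exposed pools of etv2, at 21.2, 20.7 and 24.8 CPM, reached into the range of the controls. Those of flt4, at 21.2, 29.0 and 36.6 CPM, lay below, within and above the range of the controls compared. In I10 the etv2 groups overlapped (log2 difference −0.05), whereas tek was higher in each exposed pool, with 12.1, 16.3 and 16.7 CPM against 8.51 and 10.1 CPM. This log2 difference of 0.70 ± 0.18 (SE) for tek had an edgeR adjusted p of 0.439. The same was seen for flt1, with 1.74, 2.07 and 1.51 CPM in the exposed pools against 1.15 and 0.954 CPM (log2 difference 0.77 ± 0.29 SE, edgeR adjusted p = 0.444). Groups did not overlap for 3 of the 10 genes in I32 (9.31% of all genes) and for 2 in I10 (26.5% of all genes), and 0.0694% and 0.0104% of all genes were DEGs.

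At 48 hpf and 0.5 mGy/h the flt4 and egfl7 pools were above their controls without passing. For egfl7 the exposed embryos had 10.9, 10.9 and 11.6 CPM and the controls 9.46, 8.17, 7.39 and 9.73 CPM (log2 difference 0.37 ± 0.11 SE, edgeR adjusted p = 0.0984). For cdh5 the exposed embryos had 12.5, 10.5 and 13.0 CPM and the controls 12.8, 19.1, 20.2 and 13.4 CPM, a log2 difference of −0.44 ± 0.16 (SE) with overlapping groups (edgeR adjusted p = 0.136). At 96 hpf the exposed larvae had 18.6, 7.60 and 12.5 CPM of kdrl against 17.5 to 21.4 CPM in the controls, 3.72, 1.91 and 2.66 CPM of cdh5 against 2.96 to 6.06 CPM, and 9.89, 17.7 and 14.0 CPM of tek against 7.33 to 9.88 CPM. Replicates 10 and 11 lay outside the controls on the same side in all of these genes, and replicate 9 was within them or, for tek, just above. The log2 differences were −0.64 ± 0.28 for kdrl, −0.80 ± 0.33 for cdh5 and 0.68 ± 0.22 for tek (SE, edgeR adjusted p = 0.238, 0.229 and 0.222). The control library left out at that stage lay on the same side as replicates 10 and 11, with 12.4 CPM of kdrl, 2.37 CPM of cdh5 and 15.04 CPM of tek. No member was a DEG at 48 hpf (0.0505% of all genes) or 96 hpf (0% of all genes), and non-overlapping groups were found for 2 genes at 48 hpf (15.8% of all genes) and for 1 at 96 hpf (23.3% of all genes).

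Over the 8 comparisons without a DEG among the members, between 1 and 4 of the 10 genes had an unadjusted p below 0.05 in each, and DESeq2 called 1 gene (cdh5 in I32) in a single one of them. Across all 10 comparisons cdh5 had a negative difference in 7 and was a DEG in none. For etv2 and flt4 the difference was positive in 8 of 10 comparisons each. For fli1a it was negative in 8 of 10, never past the threshold. Comparisons of a stage in I17 share controls, so these counts are not over independent comparisons.

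**Figure D3:**
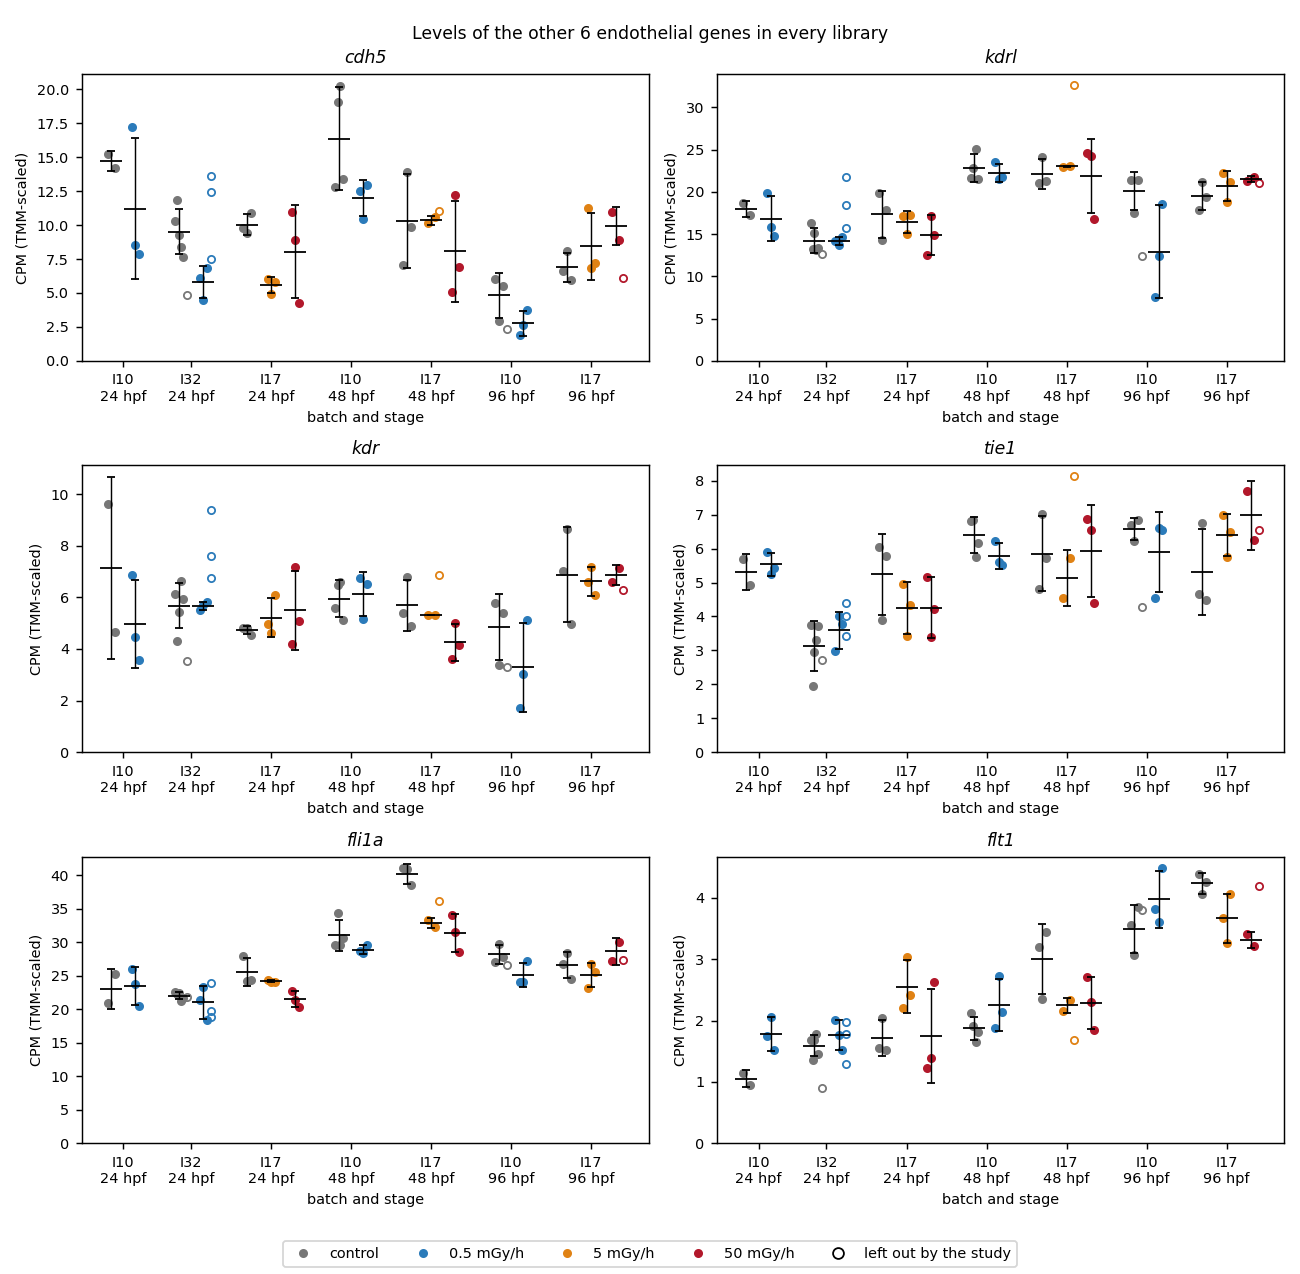
TMM-scaled CPM (y axis) of cdh5, kdrl, kdr, tie1, fli1a and flt1 in each library, by batch and stage (x axis) and coloured by dose rate; points, bars and open circles as for the raised genes. The open circles of cdh5 in I32 at 24 hpf lie at 13.6, 12.4 and 7.47 CPM for exposed pools, 2 above and 1 below the filled controls, and at 4.83 CPM for the control, and flt1 lies between 0.895 and 3.04 CPM at 24 hpf and between 3.07 and 4.49 CPM at 96 hpf.

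The normal course of each gene was read from the unexposed controls. The controls of etv2 fell from 24 to 48 hpf in both batches, from 13.2 ± 0.30 to 8.19 ± 1.45 CPM in I17 (SD, n = 3 and 3; log2 fold change −0.71, edgeR adjusted p = 0.000922) and from 23.1 ± 7.99 to 6.57 ± 0.58 CPM in I10 (SD, n = 2 and 4; log2 fold change −1.75, edgeR adjusted p = 1.90e-06). They fell again from 48 to 96 hpf in I17 (−0.87, edgeR adjusted p = 0.000183), reaching 4.39 CPM. The same step in I10 was −0.58, just under the required fold, and also ended at 4.39 CPM. Without control replicate 7 of 48 hpf in I17, the first step was −0.56 and no DEG. The highest control group mean of etv2 was 5.27 times the lowest, the widest span of the 10 genes.

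The decoy receptor gene flt1 went the other way and rose from 24 to 48 hpf in both batches, by 0.80 on the log2 scale in I17 and 0.90 in I10 (edgeR adjusted p = 0.00532 and 0.00402). From 48 to 96 hpf it rose in I10 (0.91, edgeR adjusted p = 0.000354), while the value in I17 was 0.53 (edgeR adjusted p = 0.0301). Both 24 to 48 hpf calls of flt1 were lost without some single controls, with values of 0.68 to 0.76 in I17 (without replicate 1, 4, 5 or 8) and 0.78 to 1.02 in I10 (without replicate 2, 3 or 5). For fli1a the increase from 24 to 48 hpf in I17 was a DEG (0.63, edgeR adjusted p = 0.00017), from 25.6 ± 2.13 to 40.2 ± 1.45 CPM (SD, n = 3 and 3), and in I10 the value of 0.49 was below the required fold. The decrease of cdh5 from 48 to 96 hpf was a DEG in I10, from 16.4 ± 3.80 to 4.84 ± 1.66 CPM (SD, n = 4 and 3; −1.75, edgeR adjusted p = 8.99e-06), and in I17 the value was −0.55 (edgeR adjusted p = 0.0258). For egfl7 the step from 48 to 96 hpf was −0.70 in I17 (edgeR adjusted p = 0.00257), a DEG, and −0.03 in I10, and the former was −0.54 and −0.63, no DEG, without control replicate 5 or 10.

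The control levels of kdrl, kdr, tie1, tek and flt4 gave no DEG between neighbouring stages in either batch, although tek passed from 24 to 48 hpf in I10 (−0.64, edgeR adjusted p = 0.00596) without control replicate 5 of 48 hpf. Their control group means spanned 1.60, 1.51, 2.10, 2.31 and 1.55 times from the lowest to the highest. Of the 10 genes, 3 were DEGs between 24 and 48 hpf in I17 and 2 in I10, where 32.5% and 31.9% of all genes were. Between 48 and 96 hpf 2 were DEGs in each batch, where 43.3% and 44.4% of all genes were.

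In the order of control groups, etv2 was highest at 24 hpf in all 3 batches, then at 48 hpf, then at 96 hpf. Its neighbours in that order, I10 and I32 at 24 hpf (23.1 and 19.2 CPM), did not differ beyond their spread (log2 difference −0.25, edgeR adjusted p = 0.223). For flt1 the order was 96 hpf in both batches (4.24 and 3.49 CPM), then 48 hpf in both (3.00 and 1.87 CPM), then 24 hpf in the 3 batches (1.71, 1.59 and 1.05 CPM). For fli1a and kdrl the 2 control groups of 48 hpf were the highest and the I32 group of 24 hpf the lowest.

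Some members also differed between the controls of the batches. At 24 hpf etv2 was lower in I17 than in I10 (−0.77 on the log2 scale, edgeR adjusted p = 0.0032), and the value for I17 against I32 was −0.52 (edgeR adjusted p = 0.0118). The junction gene cdh5 was lower in I32 than in I10 (−0.61, edgeR adjusted p = 0.00541), and tie1 was higher in I17 than in I32 (0.77, edgeR adjusted p = 0.006). For tek the I17 controls were higher than those of I10 at 48 hpf (0.72) and at 96 hpf (0.71), with edgeR adjusted p-values of 0.00622 and 0.00301, and for egfl7 at 48 hpf (0.62, edgeR adjusted p = 0.00688). At 24 hpf 1 of the 10 genes was a DEG in each batch pair, where 9.91% (I17 against I10), 11.5% (I32 against I10) and 7.85% (I17 against I32) of all genes were. At 48 and 96 hpf 2 and 1 of the 10 were DEGs, where 13.7% and 18.5% of all genes were. All of these 6 batch calls were lost when some single control library was left out.

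The position of each compared 24 hpf library of I17 and I32 on the control course was measured beside these values. It was taken from 13571 genes other than the members and the listed genes, with the mean I10 controls of 24 hpf at 0% and those of 48 hpf at 100%. The I17 controls lay between 25.2 and 25.8%, the 5 mGy/h pools between 3.38 and 8.26% and the 50 mGy/h pools between −3.04 and 8.33%. The I32 controls lay between 5.09 and 9.54% and the I32 pools at 0.5 mGy/h between 3.59 and 5.72%. The I32 control left out by the study lay at 13.6%. The exposed I17 embryos were thus at an earlier position than their own controls and near the position of the I32 controls. The mean I10 controls are at 0% by definition. Since the course was set by I10, stage and batch cannot be told apart in the position of the I17 controls. At 48 hpf, on the course from 48 to 96 hpf, the I17 controls lay between 12.9 and 22.1%, the 5 mGy/h pools between −0.51 and 0.17% and the 50 mGy/h pools between −3.89 and 13.0%.

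Of the 4 genes raised at 24 hpf, etv2 also fell in the controls from 24 to 48 hpf, and the I10 course was −0.51 for tek, −0.58 for egfl7 and −0.22 for flt4, none of these 3 a DEG. The egfl7 step, just under the required fold, was called in 5 of 10 alternative settings (−0.59 to −0.64), among them DESeq2 (−0.60, DESeq2 adjusted p = 0.000658). In I17 the same course was −0.71 for etv2 but 0.01 for tek, 0.14 for egfl7 and 0.01 for flt4. The etv2 levels of the exposed I17 pools (29.3 to 37.5 CPM) were above every 24 hpf control of the other batches (15.6 to 28.8 CPM), at a position that overlaps the I32 controls. Those groups differ in batch as well as exposure, which cannot be told apart. How much of the changes at 24 hpf goes with the position was not tested.

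**Figure D4:**
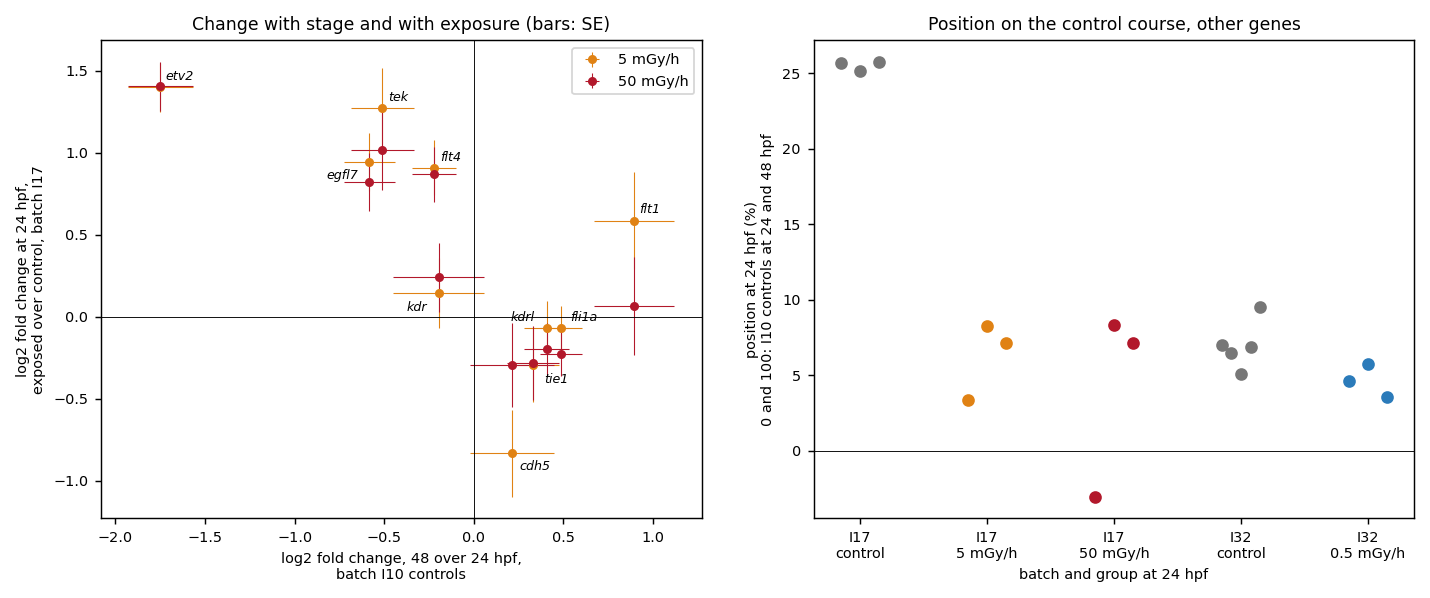
Left, log2 fold change of each gene from 24 to 48 hpf in I10 controls (x axis) against its log2 fold change with exposure at 24 hpf in I17 (y axis) at 5 and 50 mGy/h; bars are SE. Right, position of each compared 24 hpf library of I17 and I32 on the 24 to 48 hpf course of the I10 controls (y axis, %) by batch and group. The gene etv2 lies farthest to the upper left (−1.75 and 1.40), flt1 to the right (0.90), and the I17 controls lie above 25% while all other libraries shown are below 10%.

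Other genes of the vascular pathways were taken from lists of VEGF ligands and co-receptors, angiopoietins and their partners, vascular transcription factors, arterial and venous signalling, and endothelial junction and surface genes. Of 79 genes listed, 62 were matched, and 59 of these passed the low-count filter in I17 at 24 hpf. At 5 mGy/h 4 of them were DEGs, all higher (9.89% of all genes tested, 6.68% higher), with a median log2 difference of 0.14 over the 59. At 50 mGy/h 3 were DEGs, all higher (5.88% of all genes, 4.17% higher), with a median of 0.03. None of the matched genes was a DEG in the other 8 exposure comparisons. The apelin receptor gene aplnrb was higher at both dose rates, with log2 fold changes of 0.95 ± 0.17 and 0.76 ± 0.17 (SE, edgeR adjusted p = 0.00249 and 0.00944). So was the water channel gene aqp8a.1, with 3.26 ± 0.46 CPM in controls, 9.08 ± 1.60 CPM at 5 mGy/h and 9.00 ± 2.24 CPM at 50 mGy/h (SD, n = 3 each; log2 fold change 1.48 at both, edgeR adjusted p = 0.000775 and 0.000847). The calls of aqp8a.1 held under all 12 alternative settings tried at each dose rate. The remaining calls, named after their values were seen, were hhex (1.05) and gata2a (0.82) at 5 mGy/h and tal1 (0.76) at 50 mGy/h. They belong to the 18 matched vascular transcription factors. The summed CPM of that list ranged from 294 to 298 in controls, 294 to 321 at 5 mGy/h and 279 to 299 at 50 mGy/h. Genes with high CPM weigh most in such a sum.

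Markers of neighbouring cell types were read in the same libraries. Of the blood markers, klf17, a factor of primitive red cells, was higher at 24 hpf at both dose rates in I17 (0.89 ± 0.15 and 0.81 ± 0.15 SE on the log2 scale, edgeR adjusted p = 0.00149 and 0.00293). At 5 mGy/h the red cell genes gata1a (1.18) and alas2 (0.73), named after their values were seen, were DEGs as well. Of these, gata1a came from a list of 10 matched blood and endothelial progenitor genes, and alas2 from the 6 matched erythroid markers. The progenitor list also holds tal1 and gata2a. Its summed CPM at 24 hpf in I17 ranged from 65.1 to 69.7 in controls, 93.6 to 109 at 5 mGy/h and 92.2 to 110 at 50 mGy/h. Single values of the erythroid markers hbae1.1, hbae3 and cahz are not given, so the named genes do not describe the lists as a whole. At 5 mGy/h 9.89% of all genes tested were DEGs (6.68% higher). The erythroid marker hbbe3 was not a DEG at 24 hpf, with log2 differences of 0.53 and 0.42 at 5 and 50 mGy/h (edgeR adjusted p = 0.110 and 0.226). The calls of klf17 and aplnrb at both dose rates were lost without control replicate 1 or 4. Those at 5 mGy/h were also lost without 5 mGy/h replicate 2 or 4, those at 50 mGy/h when that group was fitted with its controls alone, and that of aplnrb at 50 mGy/h without replicate 3 or 4 of that group. The embryonic globin gene hbbe3 was higher at 48 hpf at both dose rates, with 86.5 ± 10.3 CPM in controls against 257 ± 35.0 and 255 ± 66.1 CPM (SD, n = 3, 2 and 3; log2 fold changes 1.58 and 1.59, edgeR adjusted p = 0.00947 and 0.00235), calls that held in 5 of 12 and 7 of 13 alternative settings and were lost without any single control. The summed CPM of the 6 matched erythroid markers at 48 hpf was 4061 to 6135 in controls, 4489 to 4773 at 5 mGy/h and 2957 to 6613 at 50 mGy/h. Since hbbe3 is a small part of this sum, the sum mostly shows the markers with the highest CPM. Of the mural cell markers, the smooth muscle actin gene acta2 was higher at 24 hpf, with 5.65 ± 0.81 CPM in controls against 16.1 ± 1.58 and 14.0 ± 0.81 CPM (SD, n = 3 each; log2 fold changes 1.52 and 1.33).

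The summed CPM of the 6 matched erythroid markers at 24 hpf in I17 ranged from 1739 to 2204 in controls, from 2455 to 3257 at 5 mGy/h and from 1742 to 2570 at 50 mGy/h. The sum of the 6 matched mural markers ranged from 646 to 682 in controls, from 504 to 576 at 5 mGy/h and from 308 to 515 at 50 mGy/h. This is the opposite direction from acta2 alone, which is a small part of the sum. The 4 matched myeloid markers summed to 19.4 to 24.4, 27.8 to 38.8 and 24.0 to 30.4 CPM, and the 4 matched heart markers to 63.4 to 66.0, 63.2 to 78.0 and 60.2 to 81.7 CPM. The heart sum includes vmhc, whose match by synonym is doubtful, so nothing is read from it. No matched marker was at 0 over a group. The part of blood and mural cells in the members' changes was not tested.

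Over the 51 libraries, with the mean of each stage and batch taken off, the members did not move as one group. The 45 pairs had Pearson correlations from −0.66 (cdh5 with tek) to 0.813 (etv2 with flt4), with a median of −0.04. Exposure is left in these deviations, so genes raised in the same libraries correlate by construction (tek with egfl7 0.78, etv2 with egfl7 0.733). The value for kdrl with kdr was 0.694, and cdh5 was negative with each of etv2, tek, flt4, flt1 and egfl7 (−0.49 to −0.66). The libraries differ in exposure and developmental position, so these are descriptions of the libraries.

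The genes most like each member by the same measure, among 13651 genes, were mostly not vascular. For etv2 they were dcaf13, osbpl10 and krt17 (0.891, 0.888 and 0.884), for flt4 caprin1, krt18a.1 and si:ch211-166a6.5 (0.911, 0.893 and 0.892), and for tek pdlim5, phtf2 and vps26c (0.941, 0.937 and 0.936). For egfl7 they were yy1, seraf and tomm7 (0.876, 0.875 and 0.874), for cdh5 cplx2, nat8 and pcyt2 (0.941, 0.937 and 0.932), and for kdrl vangl2, slk and dido1 (0.938, 0.916 and 0.914). For kdr, tie1, fli1a and flt1 the most like genes were colgalt1 (0.838), fam13b (0.776), tcf7l2 (0.726) and ptk2ab (0.653). No member was among the 3 genes most like another.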

How the data were processed

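mRNA of pooled whole embryos and larvae was sequenced by the authors with a stranded protocol. Per the labels and file layout, the deposited values are STAR read counts per Ensembl gene (GRCz11), one table per sample, with unstranded and strand-specific counts; the strand-specific column with the larger sum was used. Reads on genes made up 65.4 to 77.5% of read pairs; unmapped, multimapping (14.9 to 25.5%), ambiguous and unassigned rows were left out of library sizes and tests. Groups come from the labels (stage, batch, dose rate); the selection of 46 libraries follows the study, with the 5 libraries of I10 at 24 hpf added as a comparison of their own. The study's 2 lists differ on whether replicate 9 at 96 hpf was removed at 5 or at 50 mGy/h. The 50 mGy/h library was treated as removed here. The 5 mGy/h library kept had 25.5% multimapping and 65.4% on genes, against 15.3% and 76.5% in the removed library. With these libraries exchanged no member was called at 96 hpf at 5 or 50 mGy/h (13 and 5 of 20430 genes). The exchange was not run for the differences between stages.

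Genes were filtered with filterByExpr (minimum count 10, minimum total 15), scaled with TMM and tested with edgeR 4.0.16 (glmQLFit, glmQLFTest; R 4.3.3, limma 3.58.1), one fit per stage and batch, with 95% intervals from the same fit. CPM shown use 1 TMM scaling over all 58 libraries. At the lowest and highest depth, 3 counts equal 0.106 and 0.0600 CPM, well below all values shown. Correlations used log2 CPM (prior count 2) of genes with a mean log2 CPM of at least 1. Alternatives were DESeq2 1.42.0, size factors, no low-count filter, unstranded counts, adjusted p below 0.05, all libraries, other pooling of groups, a replicate block and each library left out. Scripts were tested on simulated counts. The members and gene lists were chosen with earlier results of these data known. Named were all members and, of the other listed genes, those called in at least 2 exposure comparisons or among the 2 largest called changes in each direction of a comparison. Outside this rule, hhex, gata2a, tal1, gata1a and alas2 were named after their values were seen. No pair of libraries agreed within counting noise (lowest chi-square per degree of freedom 6.04 over 79 replicate pairs). Promoter sequences were not used here.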

Additional observations from a re-analysis of the deposited data

Results flagged for a closer look

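Of 70 tests of a difference between effects over the 10 genes, 8 passed (edgeR's quasi-likelihood test of the interaction, adjusted p below 0.01). All 8 are between stages, while the 70 also include the tests between batches I32 and I10. The log2 effect of 5 mGy/h at 96 hpf minus that at 24 hpf was −1.79 for tek, −1.47 for etv2, −1.18 for egfl7 and −1.12 for flt4. Over all genes 12% passed this test. For 50 mGy/h it was −1.61 for tek, −1.33 for etv2 and −1.03 for flt4, where 9.14% of all genes passed. The effect of 50 mGy/h at 48 hpf minus that at 24 hpf was −1.01 for etv2, where 1.28% of all genes passed. In the 20 sets of values with 4 to 10 libraries (one member in one group), no library lay far from the rest by Dixon's criterion, which chance passes in about 1 of 20 sets.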

How the results depend on the processing

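No called member changed direction under any alternative. Every alternative scaled the libraries by TMM or by DESeq2 size factors, so unscaled shares of reads were not tested. Of the 7 exposure calls, 2 (etv2 at 24 hpf at both dose rates of I17) held in all alternatives, as did 5 of 9 stage calls, 0 of 6 batch calls and 2 of 8 differences in effect. At 24 hpf and 0.5 mGy/h in I32, DESeq2 called 1 member (cdh5) in place of 0. So did dropping the low-count filter (1) and an adjusted p below 0.05 (1). Over all genes DESeq2 called 110 there and dropping the filter 120, in place of 13. Between the I32 and I10 controls DESeq2 called 3 members in place of 1 (2581 genes in place of 2244). For the effect of 5 mGy/h at 48 minus 24 hpf it called 1 in place of 0 (489 genes in place of 167). Fitting the 50 mGy/h group of 24 hpf with its controls alone left 1 call of 3, and 320 genes in place of 1079 over all genes. With all libraries the effect of 50 mGy/h gave 0 calls for 48 minus 24 hpf in place of 1 (192 genes in place of 275). For 96 minus 24 hpf it gave 1 in place of 3 (615 genes in place of 1962).

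Leaving out 1 library at a time gave 1 to 4 calls at 24 hpf and 5 mGy/h, 1 to 4 at 50 mGy/h, and 0 in the other exposure comparisons. In the I17 controls it gave 2 to 3 calls from 24 to 48 hpf and 1 to 3 from 48 to 96 hpf; in the I10 controls 1 to 3 and 2 to 3. Between batches it gave 0 to 2 (I17 and I10, 24 hpf), 0 to 1 (I32 and I10), 0 to 2 (I17 and I32), 0 to 4 (48 hpf) and 0 to 1 (96 hpf). For the effect at 96 minus 24 hpf it gave 2 to 4 at 5 mGy/h and 0 to 3 at 50 mGy/h, and 0 to 3 for 48 minus 24 hpf at 50 mGy/h. The all-gene counts of these smaller fits are not given, so whether the loss of calls is particular to the members was not tested. Causes beyond the fewer libraries were not tested.

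Replicate numbers did not pair the samples: the deviations of same-numbered pools correlated between −0.552 and 0.434 over 24 pairs, 9 of them over 0.1, and in 0 of 5 comparisons with 3 pairs were all over 0.1. With a replicate block 3 members were called at 24 hpf and 5 mGy/h, without flt4 (edgeR adjusted p = 0.0115), and 4 at 50 mGy/h, with tek (edgeR adjusted p = 0.00548). Over all 18358 genes the block called 838 and 1176 there, in place of 1816 and 1079. The member counts of the other exposure comparisons were the same. Their all-gene counts moved, for example from 302 to 3 at 48 hpf and 50 mGy/h and from 10 to 107 at 48 hpf and 0.5 mGy/h. The block for I10 at 24 hpf was not run, since no residual degrees of freedom were left. The planned search of promoter windows for ETS motifs was not run, since no promoter sequence was at hand. Between 24 hpf controls and exposed pools of I17 the SE of a log2 difference was 0.13 to 0.30, which sets the size of change that could be called, and flt1 had the lowest counts.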
